A study of Mus musculus with 4 samples.

Results

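Axons and migrating cells steer by short-range and long-range cues, and the ligands and receptors of this system were followed here in the frontonasal prominence (FNP), the embryonic swelling that forms the forehead and nose. The genes were taken by their symbols, as the rows of the table named for an Eph receptor, an ephrin, a semaphorin of classes 3 to 7, a plexin, a neuropilin, a Slit, a Robo, a netrin, an Unc5 receptor or Dcc. This gave 66 of 33708 rows, 34 ligands and 32 receptors in 13 families, on 18 of the 19 autosomes. The rule used no measured value. Efnb1, Plxna3 and Plxnb3 also match it but lie on the X chromosome, which was not analysed here.

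Wild-type (WT, Smchd1+/+) and MD43 (Smchd1MommeD43/MommeD43) embryos of the inbred FVB/NJ strain were compared. Smchd1 encodes a chromatin protein that silences genes, and MommeD43 is a missense allele found in a chemical (ENU) mutagenesis screen. FNPs were dissected at E10.5 (embryonic day), at the stage of 29 somites, from 2 embryos per genotype. Both MD43 embryos were male. The labels give 1 female and 1 male WT embryo, while a supplementary file of the study lists the second WT embryo as female as well, in which case sex and genotype cannot be told apart. The second embryos of the 2 genotypes shared a mother, and the first came from other mothers. Each genotype is held as 1 value, the mean of its libraries on the log2 scale, so no spread between embryos can be given and no test could be run. The differences below therefore have no replicate check, and compare these libraries. Levels are in RPKM, reads scaled to transcript length and library size, and a difference is the MD43 minus the WT value on the log2 RPKM scale. The ± after it is a lower limit of the standard error, which covers the sampling of reads and not the variation between embryos. Reads are the geometric mean of the libraries of a genotype, at an implied depth of 16055882 reads per library for WT and 22328791 for MD43, so equal levels give 1.39 times the reads in MD43.

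Ephrins sit on the cell surface and signal to Eph receptor tyrosine kinases on a touching cell, often driving the cells apart, and they keep tissue boundaries in the embryo. Semaphorins act through plexins, the secreted class 3 mostly with neuropilins as co-receptors, and repel axons, neural crest cells and vessels. Slits repel cells that carry Robo receptors. Netrins attract through Dcc and repel through the Unc5 receptors. In the developing face the same molecules are known in migrating neural crest, in vessels and in the first neurons.

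Smchd1 RNA was at 3.31 log2 RPKM in WT and 3.30 in MD43 (difference -0.01 ± 0.02), which does not check the labels, since a missense allele need not alter its RNA. The tissue was checked against markers of the cells it could hold, in lists chosen with earlier results of these data known. The 11 facial mesenchyme markers were all detected, summing to 186 RPKM in WT and 182 in MD43. Other lists differed more between the genotypes. Of 14 diencephalon and optic vesicle markers, which summed to 49.8 RPKM in WT and 31.4 in MD43, the 12 that reached 10 reads were all lower in MD43 (median difference -0.84), and of 11 young neuron markers 10 were lower (142 and 129 RPKM, median -0.44). Of 10 surface ectoderm markers 9 were higher (125 and 193 RPKM, median 0.65), and all 6 red blood cell markers were higher (3059 and 5817 RPKM, median 0.86). Neural progenitor markers summed to 582 RPKM in WT and 493 in MD43, endothelial markers to 36.1 and 31.4 RPKM, and olfactory placode markers to 97.7 and 107 RPKM, and no marker listed in the table was without reads. The part of these shifts in the values below was not tested, and in bulk tissue fewer cells of a type and less RNA per cell cannot be told apart.

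Most guidance genes differed by less than 1.5-fold between the genotypes. Those that reached 10 reads in WT or in MD43 were compared, 64 of the 66. Of these, 32 were higher and 32 lower in MD43, beside 51.2% and 48.8% of the 15377 genes compared in all, and the median difference was -0.03 beside 0.0057. A difference of at least 1.5-fold was seen for 7. Epha5, Slit1, Dcc, Epha8 and Robo3 were lower, 5 of 64 (7.81%) beside 6.43% of all genes. Unc5b and Sema3d were higher, 2 of 64 (3.12%) beside 4.24%. Both shares were near that background, so the count says nothing particular about guidance genes. At 2-fold only Epha5 and Slit1 remained, both lower, beside 2.47% of all genes. The quartiles of the guidance genes were -0.29 and 0.23, and those of all genes -0.16 and 0.15.

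**Figure D1:**
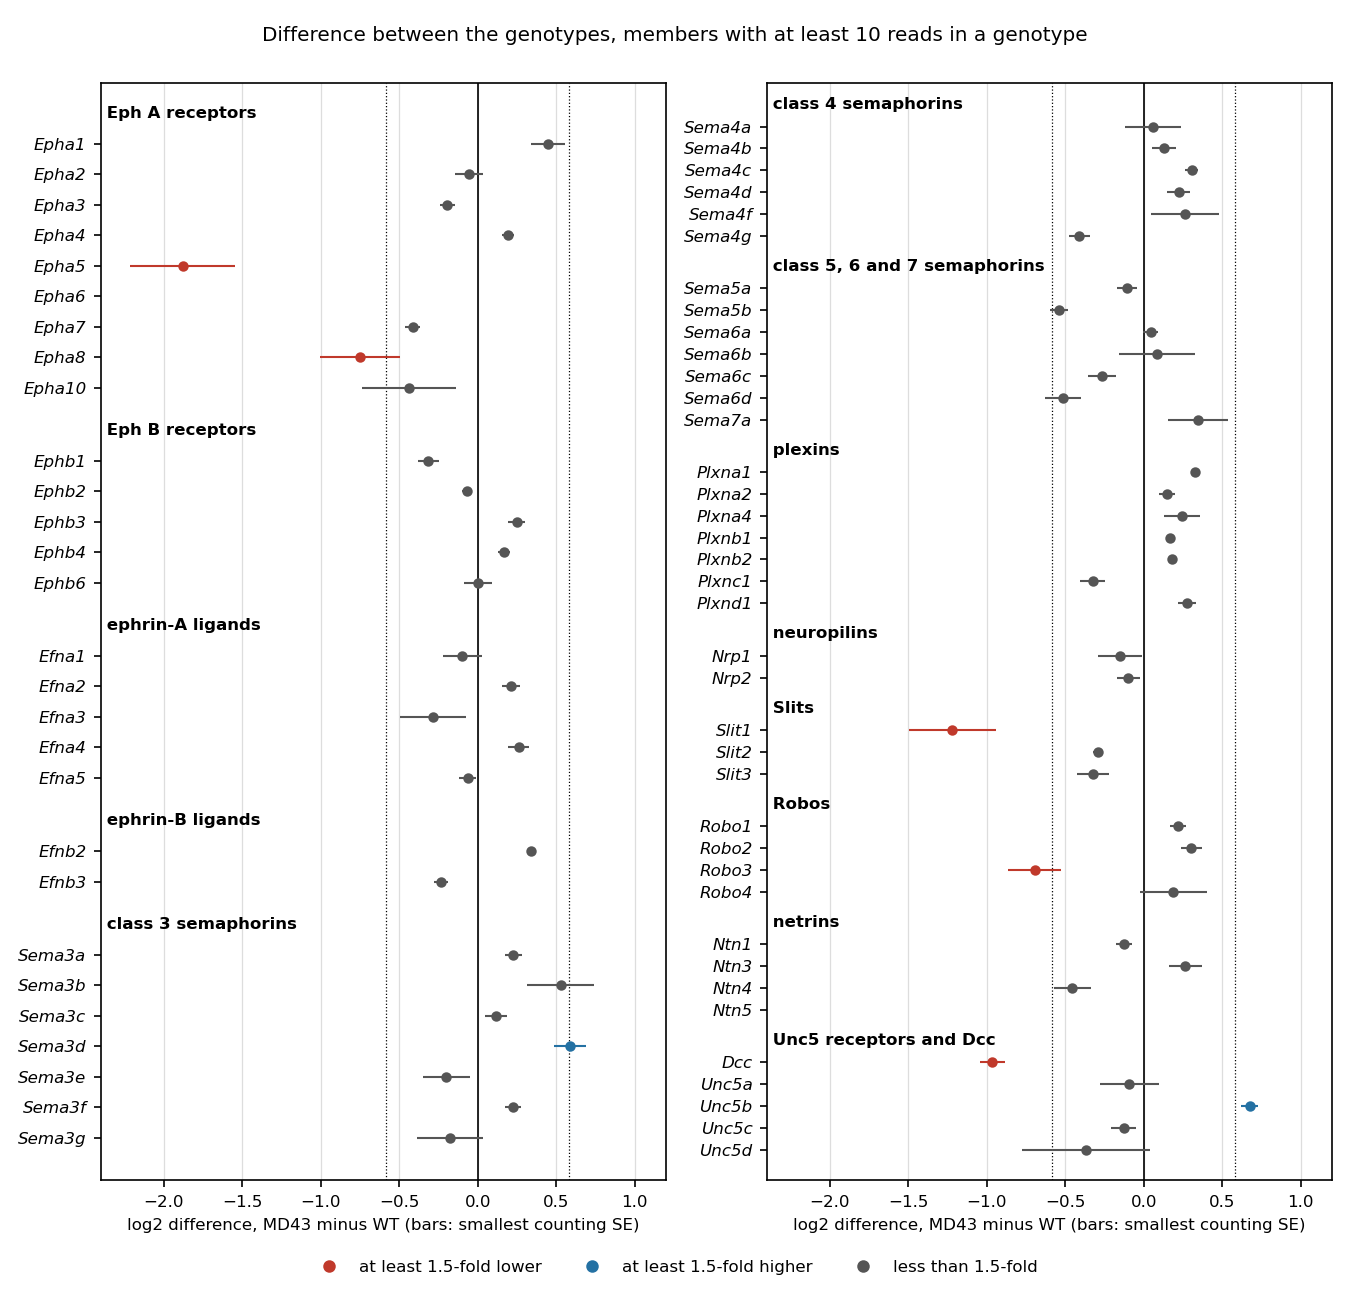
Difference of each compared guidance gene between MD43 and WT, on the log2 RPKM scale, by family, with bars for the smallest counting error and lines at 1.5-fold. The 7 genes outside the lines are Epha5, Slit1, Dcc, Epha8 and Robo3 on the lower side and Unc5b and Sema3d on the higher side.

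How far a difference can be read depended on the reads behind it. Among genes with a mean under 50 reads, 20.5% passed 1.5-fold on the lower side and 16.6% on the higher side, and Epha5, Slit1 and Epha8 belong to this band. Robo3 lies between 50 and 200 reads, where 8.94% of genes were lower and 3.23% higher by this measure. Dcc, Unc5b and Sema3d lie between 200 and 1000 reads, where 1.85% of 5070 genes were lower and 0.71% higher. These bands were drawn after the data were seen. Of the 32 guidance genes in the 200 to 1000 band, 1 was lower and 2 higher by 1.5-fold. None of the 10 guidance genes with 1000 reads or more passed 1.5-fold, beside 0.524% of genes lower and 0.393% higher. Of the 58 guidance genes that reached 50 reads in either genotype, 2 were lower (beside 3.18% of genes) and 2 higher (beside 1.51%). Direction also varied with reads. Of all compared genes, 47.2% were above 0 at a mean under 50 reads and 41.1% at 50 to 200 reads. This share was 50.1% at 200 to 1000 reads and 60.9% at 1000 or more. The families are small, and their counts of higher and lower genes below are to be read beside these shares.

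**Figure D2:**
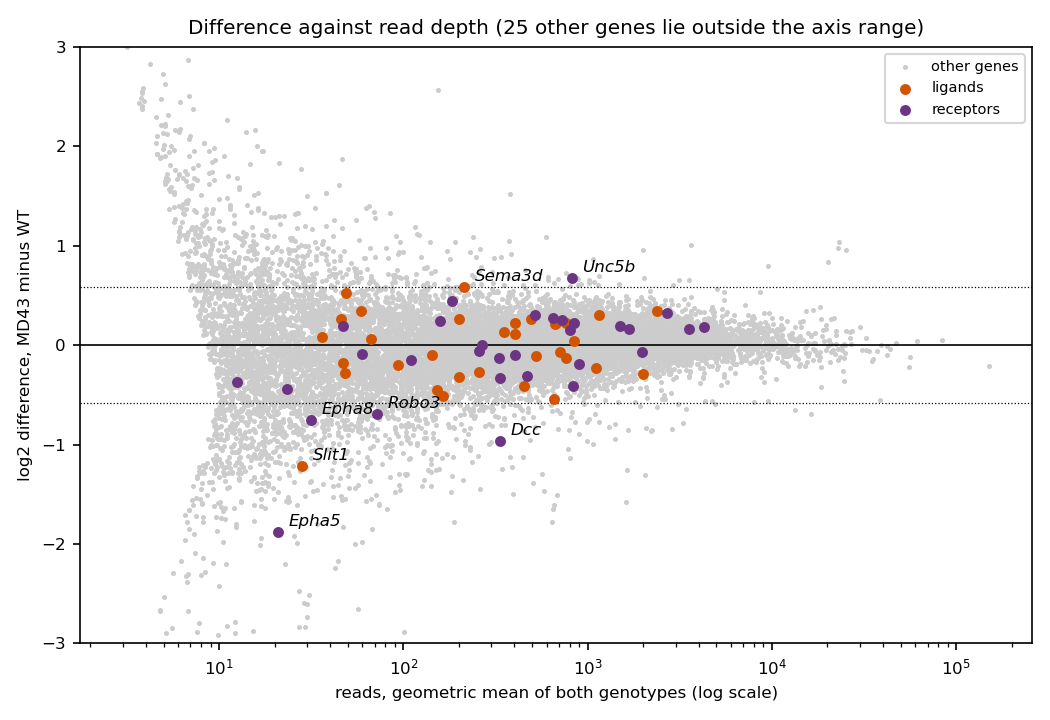
Difference between MD43 and WT (log2 RPKM scale) against mean reads (log axis) for all compared genes in grey and the guidance genes in colour. The grey cloud narrows as reads rise, and Dcc, Unc5b and Sema3d stand outside the lines at 1.5-fold in the range of 200 to 1000 reads. The axis leaves out 25 of the other genes.

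The level of the guidance genes spanned a wide range. Plexin B2 (Plxnb2) was the highest, at 27.5 RPKM in WT and 31.1 in MD43, above 88.7% of the compared genes. In both genotypes 9 genes were at 10 RPKM or more and 20 at 1 RPKM or less. All 66 summed to 305 RPKM in WT and 327 in MD43, split almost evenly between ligands (154 and 160 RPKM) and receptors (152 and 166 RPKM).

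**Figure D3:**
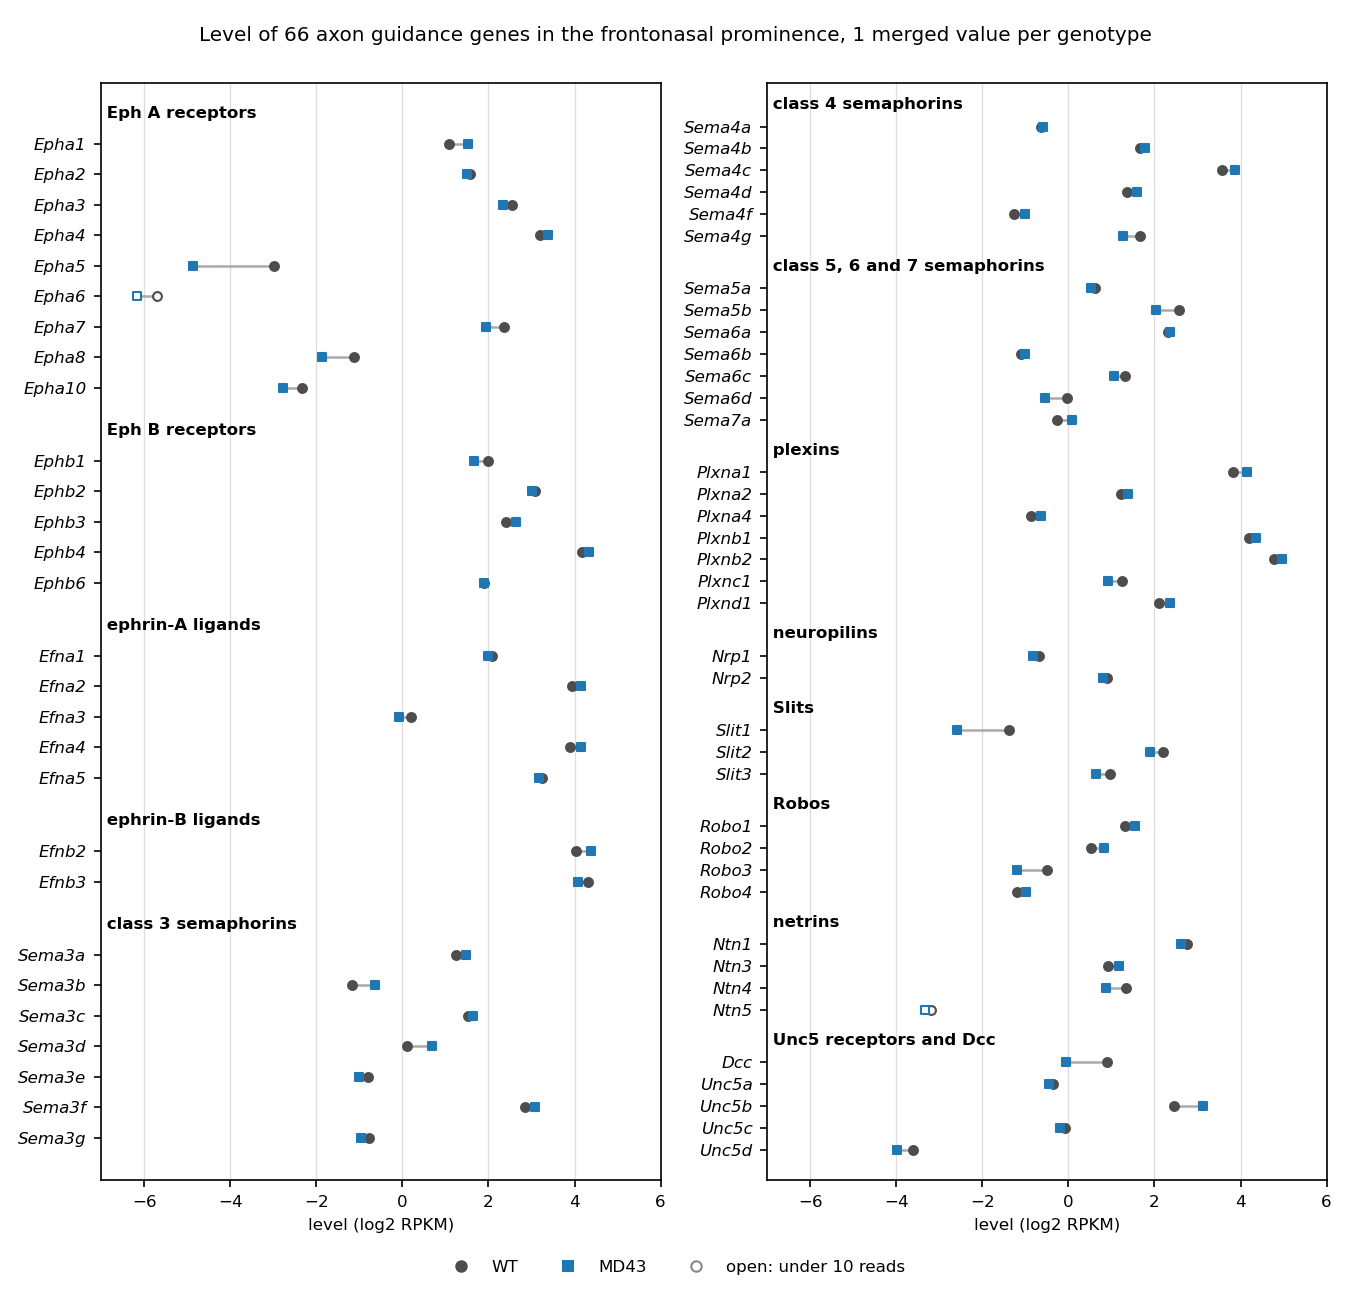
Level of each guidance gene in WT and MD43 as log2 RPKM, ordered by family, with open marks for genes under 10 reads. The paired points lie close together for most genes, with the wide gaps at Epha5 and Slit1, and Plxnb2 is the highest point.

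Promoter sequences are shown for 4 of the 7 genes past 1.5-fold, so that their CG content can be read beside their values. They are RefSeq entries for GRCm38.p6, 250 bases ending just before the start that RefSeq gives, written 5′ to 3′ on the strand of the gene with each CG in capitals. They are reference sequence, not that of FVB/NJ. For Sema3d this start lies upstream of the gene start in the table. The Epha5 sequence is chr5:84417383-84417632 (minus strand), Epha8 is chr4:136956817-136957066 (minus strand), Sema3d is chr5:12382916-12383165 (plus strand) and Unc5b is chr10:60831582-60831831 (minus strand).
Epha5: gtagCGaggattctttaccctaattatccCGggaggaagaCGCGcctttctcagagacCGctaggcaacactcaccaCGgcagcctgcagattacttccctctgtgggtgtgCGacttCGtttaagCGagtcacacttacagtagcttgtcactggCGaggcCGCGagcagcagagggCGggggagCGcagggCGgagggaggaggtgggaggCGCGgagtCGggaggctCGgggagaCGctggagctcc
Epha8: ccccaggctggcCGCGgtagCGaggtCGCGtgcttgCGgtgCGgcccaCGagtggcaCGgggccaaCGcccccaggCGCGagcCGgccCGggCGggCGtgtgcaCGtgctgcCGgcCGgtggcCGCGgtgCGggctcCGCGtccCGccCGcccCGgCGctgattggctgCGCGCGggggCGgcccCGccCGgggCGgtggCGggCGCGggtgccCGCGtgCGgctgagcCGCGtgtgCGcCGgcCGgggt
Sema3d: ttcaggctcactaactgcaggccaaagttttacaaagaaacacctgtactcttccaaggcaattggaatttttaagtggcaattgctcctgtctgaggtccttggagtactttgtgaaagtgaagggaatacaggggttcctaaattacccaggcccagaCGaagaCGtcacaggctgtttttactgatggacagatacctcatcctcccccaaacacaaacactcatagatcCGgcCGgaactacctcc
Unc5b: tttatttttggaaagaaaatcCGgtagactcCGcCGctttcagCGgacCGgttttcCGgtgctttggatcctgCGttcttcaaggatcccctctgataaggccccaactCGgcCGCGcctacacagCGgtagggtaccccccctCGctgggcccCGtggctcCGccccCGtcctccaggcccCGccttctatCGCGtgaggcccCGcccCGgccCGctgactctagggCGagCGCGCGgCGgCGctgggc
The genes differed widely in this feature. Epha8 held 46 CG, more than 99.7% of the 32841 mouse promoters of the same length, Unc5b 27 (more than 91.4%), Epha5 20 (more than 82.0%) and Sema3d 4 (more than 37.8%). Robo3, whose sequence runs into the annotated transcript and is not shown, held 12. The genes that were higher thus included a CG-rich promoter and, in Sema3d, a promoter with fewer CG than the median of all promoters. Dcc was left out of the promoter search and no usable entry was found for Slit1, so the CG counts cover neither gene. RefSeq entries were matched for 56 of the 66 guidance genes, and their 72 promoters had a median of 16 CG, beside 6 over all promoters. The letters CANNTG, searched on both strands, were present 3 times in Sema3d, 2 times in Robo3, once in Epha8 and in neither Epha5 nor Unc5b, and in 66.2% of all promoters. TATAAA was in none of the 5 on either strand and in 12.4% of all promoters.

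The netrin receptors Dcc and Unc5b differed most among the guidance genes with a mean of 200 reads or more, and in opposite directions. Dcc (chr18:71253634-72351069, minus strand), through which netrin-1 attracts axons, was at 1.88 RPKM in WT (397 reads) and 0.962 RPKM in MD43 (283 reads), a difference of -0.96 ± 0.08 or 1.95-fold lower. Unc5b (chr10:60762593-60831581, minus strand), a repulsive netrin receptor also known in endothelial cells, was at 5.49 RPKM in WT (552 reads) and 8.77 RPKM in MD43 (1225 reads), a difference of 0.68 ± 0.05 or 1.6-fold higher. The ratio of Unc5b to Dcc RPKM was 2.92 in WT and 9.11 in MD43, 3.12-fold apart (log2 1.64 ± 0.10). It restates the differences just given, of genes named because those differences were large, and is no separate result. Dcc made up 20.5% of the RPKM of the Unc5 and Dcc family in WT and 8.45% in MD43, and Unc5b 59.8% and 77.0%. The other members, which are repulsive receptors as well, were lower by little: Unc5a (-0.09 ± 0.19), Unc5c (-0.13 ± 0.08) and Unc5d (-0.37 ± 0.41, with 12 and 13 reads). Since Unc5b carries most of the level, the summed level of the family was higher in MD43 (9.18 and 11.4 RPKM) while the median difference was -0.13.

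The ligands of these receptors differed less. Ntn1, encoding netrin-1, was at 6.72 RPKM in WT and 6.16 RPKM in MD43 (-0.12 ± 0.05). Relative to Ntn1, the Dcc level was 0.279 in WT and 0.156 in MD43, and that of Unc5b 0.817 and 1.42. Ntn4, a laminin-related netrin of basement membranes, was 0.45 ± 0.12 lower on the log2 scale, and Ntn3 differed by 0.27 ± 0.10 but shares exon sequence with BC028777 and Tbc1d24. Ntn5, with 3.87 and 4.90 reads, was not compared. Neogenin (Neo1), a Dcc relative, was at 3.93 log2 RPKM in WT and 3.97 in MD43.

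**Figure D4:**
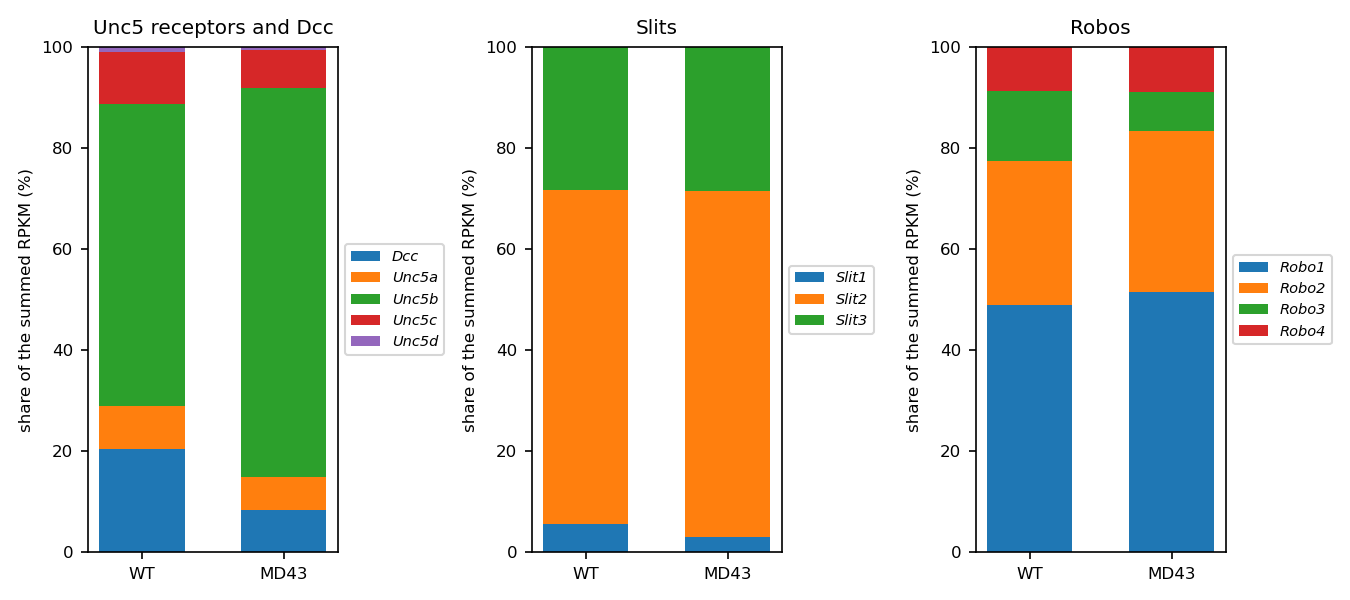
Share in percent of the summed RPKM held by each gene, in WT and MD43, for the Unc5 and Dcc family, the Slits and the Robos. Dcc takes 20.5% of the Unc5 and Dcc family in WT and 8.45% in MD43, while Unc5b takes 59.8% and 77.0%.

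All 3 Slits were lower in MD43. Slit2, the main Slit here with 66.1% of the family RPKM in WT and 68.4% in MD43, was at 2.19 log2 RPKM in WT (1863 reads) and 1.90 in MD43 (2117 reads), a difference of -0.29 ± 0.03. Slit3 differed by -0.32 ± 0.10. Slit1 (chr19:41600257-41743665, minus strand), the Slit best known from the nervous system, was at 0.386 RPKM in WT and 0.166 RPKM in MD43, from 36.7 and 21.9 reads (-1.22 ± 0.28, 2.33-fold lower). Slit1 was thus a minor part of the family in both genotypes, 5.59% and 3.04%, and the summed level of the family went from 6.90 RPKM in WT to 5.45 RPKM in MD43.

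The Robo receptors did not share a direction. Robo1 and Robo2, the principal Slit receptors, were higher by 0.22 ± 0.05 and 0.30 ± 0.06. Robo3 (chr9:37415669-37433246, minus strand), known for its part in axons that cross the midline, was at 0.710 RPKM in WT (78.1 reads) and 0.439 RPKM in MD43 (67.1 reads), 1.62-fold lower (-0.70 ± 0.17). Robo4, which is largely endothelial, differed by 0.19 ± 0.21, less than its counting error. The ratio of Robo1 to Robo3 RPKM was 3.52 in WT and 6.63 in MD43 (log2 difference 0.91 ± 0.18), which restates their differences given above.

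Of the Eph A receptors 6 of 8 compared were lower, with a median of -0.30, and the largest differences were those of genes at low levels. The median was -0.054 for those that reached 50 reads and -0.094 with a pseudocount of 1 RPKM. Epha5 (chr5:84054761-84417382, minus strand), a receptor of neural tissue, was at 0.126 RPKM in WT and 0.0344 RPKM in MD43, with 34.0 and 12.8 reads (-1.88 ± 0.33, 3.68-fold lower). Epha8 (chr4:136929419-136956816, minus strand) rested on 34.9 WT and 28.8 MD43 reads (-0.75 ± 0.26, 1.68-fold lower). These 2 genes made up 0.486% and 1.77% of the Eph A level in WT, so the summed level was nearly equal, 26.0 RPKM in WT and 25.6 in MD43. The abundant members went both ways. Epha4, the highest, was at 3.20 log2 RPKM in WT and 3.39 in MD43 (0.19 ± 0.04), Epha3 differed by -0.19 ± 0.05 and Epha7 by -0.41 ± 0.05. Epha2, an epithelial receptor, was close to equal (-0.05 ± 0.09), and Epha10 had 23.0 and 23.6 reads (-0.44 ± 0.30). Epha1, another epithelial receptor, was higher by 0.45 ± 0.11 and overlaps Zyx in an exon. Epha6 had 1.64 reads in each genotype and was not compared.

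The ligands of the A class were led by Efna2 (15.4 RPKM in WT, 17.8 in MD43) and Efna4 (14.9 and 17.8 RPKM). Both were higher in MD43, by 0.21 ± 0.06 and 0.26 ± 0.07. Efna5 (-0.06 ± 0.05) and Efna1 (-0.10 ± 0.12) were close to equal, and Efna3 differed by -0.28 ± 0.21 with an exon shared with Gm15998. Summed ephrin-A levels were 45.2 RPKM in WT and 49.6 in MD43.

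Among the B class the pair known from arteries and veins was both higher by little. Ephb4, the venous receptor and the highest Eph B receptor, was at 18.1 RPKM in WT and 20.3 in MD43 (0.17 ± 0.04), and its arterial ligand Efnb2 at 16.3 and 20.7 RPKM (0.34 ± 0.03). Their ratio was 1.11 in WT and 0.982 in MD43. Efnb3, an ephrin of the neural midline and the highest autosomal ephrin in WT, was lower (19.9 and 17.0 RPKM, -0.23 ± 0.04). Of the summed level of Efnb2 and Efnb3, Efnb2 held 45.0% in WT and 55.0% in MD43. Efnb1, on the X chromosome, was not analysed, so these are not shares of all ephrin-B RNA. Ephb3 was 0.25 ± 0.05 higher and Ephb1 0.31 ± 0.07 lower. Ephb2 (-0.07 ± 0.03) and Ephb6 (0.0016 ± 0.09), which lacks kinase activity, were close to equal.

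The secreted class 3 semaphorins were mostly higher in MD43, 5 of 7, with a median of 0.23. Sema3d (chr5:12383385-12588948, plus strand), which guides vessels and neural crest derivatives, was at 1.08 RPKM in WT (148 reads) and 1.62 RPKM in MD43 (310 reads), a difference of 0.59 ± 0.10, just past 1.5-fold. Just inside it on the same side stood Sema3b (0.53 ± 0.21, with 34.3 and 68.8 reads). Sema3f, the highest of the class with 47.7% of its level in WT and 47.9% in MD43, and Sema3a, the prototype repellent, were each 0.23 higher, with errors of 0.05 and 0.06. Sema3c, which acts in outflow tract development, was higher by 0.12 ± 0.07. Sema3e, a vessel repellent (-0.20 ± 0.15), and Sema3g (-0.18 ± 0.21) were the 2 of the class that were lower, the latter within its counting error. Their co-receptors Nrp1 (-0.15 ± 0.14) and Nrp2 (-0.10 ± 0.07) were slightly lower, and Nrp2 held 74.8% of the neuropilin level in WT and 75.5% in MD43.

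Of the other semaphorins, 5 of 6 in class 4 were higher (median 0.18), and 3 of 7 in classes 5 to 7 (median -0.11). Sema4c, a ligand of plexin B2 that held most of the class 4 level, was at 11.9 RPKM in WT and 14.7 in MD43 (0.31 ± 0.04), and Sema4d, the plexin B1 ligand, was higher by 0.22 ± 0.07. Sema4b (0.13 ± 0.08), Sema4f (0.26 ± 0.22) and Sema4a (0.06 ± 0.18) were higher by little, and Sema4g was lower (-0.41 ± 0.07). Among the latter, Sema5b, which carries thrombospondin repeats, stood just inside the limit on the lower side (-0.54 ± 0.06, with 672 and 643 reads). Sema6d (-0.51 ± 0.11) and Sema6c (-0.27 ± 0.09), both plexin A ligands, were also lower, Sema5a was at -0.11 ± 0.06, and Sema6a (0.04 ± 0.05) and Sema6b (0.08 ± 0.24) were within their counting error. Sema7a, a lipid-anchored semaphorin, differed by 0.35 ± 0.19.

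The autosomal plexins were the family with the highest summed level, 69.4 RPKM in WT and 79.7 in MD43, and 6 of 7 were higher. Plxnb2 (0.18 ± 0.02), the semaphorin receptor of most level here, Plxnb1 (0.17 ± 0.02) and Plxna1 (0.33 ± 0.03, with an exon shared with Gm26811) were among the most deeply read, with at least 2046 reads in each genotype. Plxna2 (0.15 ± 0.05), Plxna4 (0.24 ± 0.12) and Plxnd1, the endothelial plexin (0.27 ± 0.06), pointed the same way. Plxnc1, the Sema7a receptor, was lower (-0.33 ± 0.08). None of the 7 reached 1.5-fold. Of all genes, 60.9% were above 0 at a mean of 1000 reads or more (the band of Plxna1, Plxnb1 and Plxnb2), 50.1% at 200 to 1000 reads (Plxna2, Plxnc1 and Plxnd1) and 41.1% at 50 to 200 reads (Plxna4).

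A pair of subsets, which share Nrp1 and leave out most of the guidance genes, was read by the tissues in which their genes are best known. Both subsets were chosen with earlier results of these data known, so the counts below are not independent of the values. The 6 genes chosen for roles in blood vessels (Efnb2, Ephb4, Nrp1, Plxnd1, Robo4 and Unc5b) had a median difference of 0.23, 5 of 6 were higher and 1 (Unc5b) passed 1.5-fold, beside 4.24% of all genes. Sema3d (0.59) and Sema3e (-0.20), which also act on vessels, were not in this subset. The summed level of these genes was 45.2 RPKM in WT and 56.0 in MD43, while that of the 12 endothelial markers was 36.1 and 31.4 RPKM, with 9 of 12 markers lower and none past 1.5-fold. The 15 receptors classic in neurons had a median of -0.10, with 9 lower and 6 higher. Their summed level was 46.8 RPKM in WT and 49.7 in MD43. Dcc, Epha5 and Robo3 were at least 1.5-fold lower, 3 of 15 (20.0%) beside 6.43% of all genes. By band of reads, the share of all genes was 20.5% for Epha5, 8.94% for Robo3 and 1.85% for Dcc. Whether these values go with the lower young neuron and diencephalon markers given above was not tested.

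Other genes of the pathway were read from lists, which were also chosen with earlier results of these data known. Of 31 compared ligands, receptors and cofactors outside the families, 4 were at least 1.5-fold lower (12.9%, beside 6.43% of all genes) and 0 higher (beside 4.24%), with a median of -0.09. These were Ntng2, a membrane-anchored netrin relative (-1.12 ± 0.16, with 106 and 67.4 reads), the cell adhesion molecules Chl1 (-1.10 ± 0.37, with 19.1 and 12.4 reads) and Cntn2 (-0.59 ± 0.15, with 102 and 94.3 reads), and Islr2, a membrane protein of neurons (-0.73 ± 0.07, with 489 and 409 reads). In their bands of reads the share of all genes lower was 20.5% for Chl1, 8.94% for Ntng2 and Cntn2, and 1.85% for Islr2. Of 46 compared intracellular effectors, 1 was at least 1.5-fold lower and 1 higher, with a median of -0.02. This is 2.17% each, beside 6.43% and 4.24% of all genes. Mical2, an actin oxidase of the family that acts below plexins, differed by -0.87 ± 0.24, and Dpysl4, a collapsin response mediator, by 0.90 ± 0.52 from 5.29 and 13.7 reads.

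**Figure D5:**
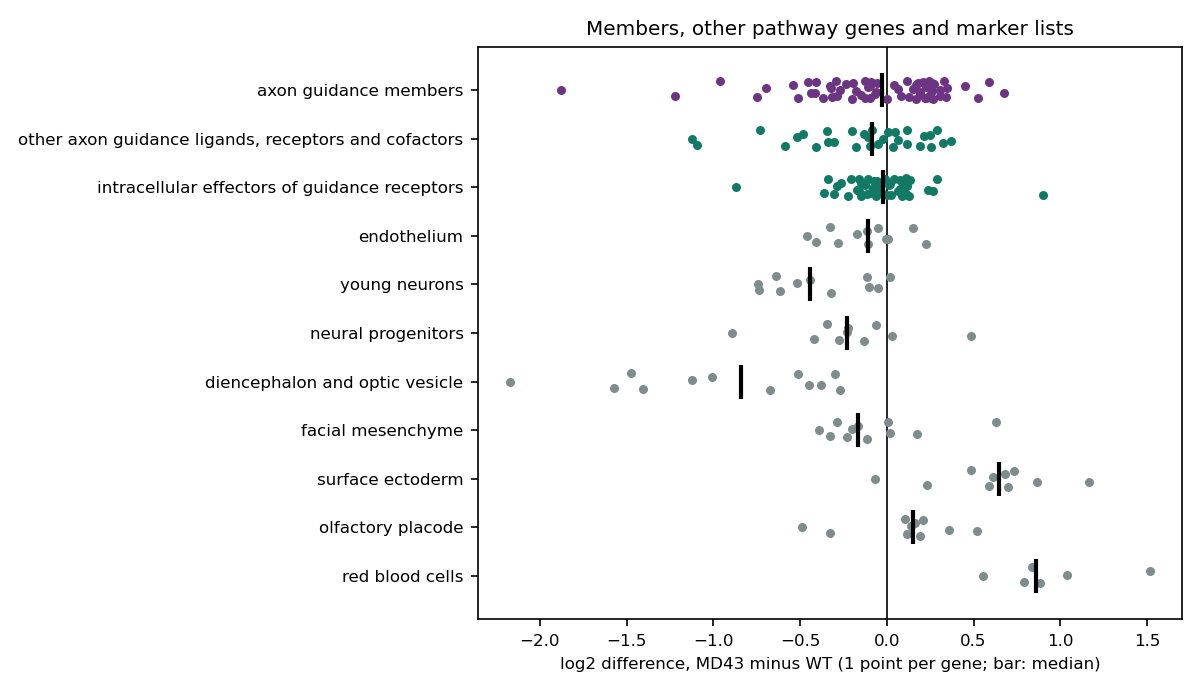
Difference between MD43 and WT (log2 RPKM scale) of the compared guidance genes, the pathway lists and the marker lists, with 1 point per gene and a bar at the median. All diencephalon and most young neuron markers lie below 0, most surface ectoderm and all red blood cell markers above. The medians of the guidance genes and pathway lists lie near 0.

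Reads of overlapping genes cannot be told apart where strand was not used in counting. An exon of another gene overlapped 18 of the 66 guidance genes and none of the 7 past 1.5-fold.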

How the data were processed

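Frontonasal prominence RNA of 4 embryos was sequenced by the study from stranded mRNA libraries. Per the submitters' processing notes, reads were trimmed with Trim Galore 0.4.4 and mapped with HISAT2 2.0.5 to GRCm38. The authors then used SeqMonk to make the deposited log2 RPKM values, scaled for library size and transcript length, with the libraries of a genotype merged into 1 column. The table also holds the authors' log2 fold change, mean and FDR columns for their own comparison, and these were not used. Use of strand and the annotation in counting are not given in the sources used here.

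Each difference given is the MD43 value minus the WT value. Of 33708 rows, 33101 matched GENCODE M21 (release 21) on symbol and coordinates. Genes without reads share 1 log2 difference, -0.48, since a library without reads is entered as 0.9 reads. With the exon length, this constant turns each value into the product of the reads of the 2 libraries. Of products under 1000, 99.9% were a whole number, 0.9 times one, or the square of 0.9 in each genotype (tolerance 0.01, or 0.01% of products above 100). The square root of the product is given as the reads of a genotype. The implied depth was 16055882 reads per library for WT and 22328791 for MD43. The error of a difference is the smallest standard error that counting alone allows at these reads. It leaves out the spread between embryos. The recovery was tested on simulated data.

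Genes that reached 10 reads in WT or MD43 (15377) formed the background. No test could be run, because the table gives 1 value per genotype. A difference of at least 1.5-fold is used to describe size. The members, gene lists and subsets were chosen with earlier results of these data known. Members that reached this minimum are named by family, and in more depth the highest member of each family, those past 1.5-fold and those of a blood vessel subset. Of other pathway genes, those past 1.5-fold are named. Alternatives were pseudocounts of 0.1 and 1 RPKM, median centring, a correction for length and GC content, a floor of 3 reads, a minimum of 50 reads, no minimum and a 2-fold limit. The bands of reads were added after the data were seen. Python 3.11.15, numpy 2.4.6, pandas 2.3.3 and matplotlib 3.10.9 were used.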

Additional observations from a re-analysis of the deposited data

How the results depend on the processing

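The direction of all 7 genes past 1.5-fold held under each alternative, but their number depended on low levels. The 5 lower genes became 0 with a pseudocount of 1 RPKM (beside 1.11% of all genes), 2 with a minimum of 50 reads (3.18%; Dcc and Robo3) and 2 at a 2-fold limit (2.47%). The 2 higher genes became 1 with a pseudocount of 0.1 RPKM (2.93%), 1 with 1 RPKM (0.462%), 1 after centring on the median of all genes (4.18%) and 0 at 2-fold (1.64%). A pseudocount shrinks low levels by its construction. With 1 RPKM, Dcc stood at -0.55, Unc5b at 0.59, Sema3d at 0.33, Robo3 at -0.25, Slit1 at -0.25, Epha8 at -0.20 and Epha5 at -0.12. The Eph A median of -0.30 was -0.094 with a pseudocount of 1 RPKM and -0.054 with a minimum of 50 reads. Of 320 values of single genes under the alternatives, 8 moved beyond their counting interval and 2 changed sign, neither of them past 1.5-fold. Correction for length and GC content, which took 1.4% of the variance, left Dcc at -0.90 and Unc5b at 0.65. No paired analysis was possible because the deposited columns merge the libraries of each genotype, and leaving out a library was not run for the same reason. Low reads limit Epha5, Slit1 and Epha8 most.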

Other observations

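Several guidance genes are chromosomal neighbours, and their values are given side by side with no test. Robo3 and Robo4 lie 553 bases apart on chromosome 9 on opposite strands, and differed by -0.70 and 0.19 on the log2 RPKM scale. On chromosome 3, Efna1, Efna3 and Efna4 follow each other with gaps of 32756 and 10424 bases, with differences of -0.10, -0.28 and 0.26. Ephb2 and Epha8 lie 93430 bases apart on chromosome 4 (-0.07 and -0.75). On chromosome 5 the order Sema3d, Sema3a, Sema3e ran from 0.59 through 0.23 to -0.20, and Sema3c, further along, differed by 0.12. Robo1 and Robo2 on chromosome 16, 845743 bases apart, were both higher (0.22 and 0.30), as were Sema3b and Sema3f on chromosome 9 (0.53 and 0.23).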
